A study of Homo sapiens with 6 samples.

Results

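NF-kappaB is a family of dimeric transcription factors, and the 10 genes described here code for its 5 subunits (RELA, RELB, REL, NFKB1 and NFKB2), for 2 of its inhibitors (NFKBIA and NFKBIE), for a pair of feedback proteins that it induces (TNFAIP3 and BIRC3) and for a classical target, the adhesion molecule ICAM1. They were chosen by name, since NF-kappaB is a reported redox target of APE1, and each symbol was matched to its Ensembl ID in GENCODE 29. All 10 were found among the 58051 genes of the table, and all 10 were among the 14773 genes with enough counts to be tested. Their counts ran from 276 for REL to 5978 for NFKB2 in a single library, so none of them was near the limit of detection.

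The cells were OE33, an established human line from oesophageal adenocarcinoma, grown in RPMI1640 with serum. One group was given 15 µM APX2009 for 24 h, and the control group was left untreated; no vehicle is named for it. APX2009 is a small molecule described by the submitters as a specific inhibitor of the redox function of APE1, the product of APEX1. Each group held 3 libraries of poly(A) RNA, described as independent biological replicates, and all come from the same line, with no inactive analogue and no loss of APE1 among the samples.

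In resting cells IkappaB proteins such as those of NFKBIA and NFKBIE hold RELA, REL and NFKB1 dimers in the cytoplasm. Signals from receptors of the TNF, interleukin-1 and Toll-like families activate the IKK kinases, which mark the IkappaB proteins for destruction and release the dimers to the nucleus. A slower, alternative route uses the kinase NIK (MAP3K14) to process the NFKB2 precursor and frees RELB. The dimers then switch on their own inhibitors, which closes a feedback loop. The DNA-binding loop of the subunits carries a cysteine that must be reduced for binding, and APE1 and thioredoxin are known for keeping it so; this acts on the protein, which RNA counts do not measure.

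Several of these genes, NFKBIA, NFKB2, TNFAIP3, BIRC3 and ICAM1 among them, are known targets of NF-kappaB dimers, so the bases before their starts are shown for the 3 members that fell with APX2009 (TNFAIP3, BIRC3 and ICAM1) and for 3 that did not pass the test (NFKBIA, NFKB2 and RELA). Of the 10 members, 8 matched RefSeq promoter windows (GRCh38.p14) by symbol, and RELB and NFKBIE did not. The RefSeq starts are not always the outer ends of the GENCODE gene spans given below. For ICAM1 the RefSeq start is 10271120, inside a span that begins at 10270835. A window runs from 250 bases before to 50 bases after a start, and was searched on both strands for the kappaB consensus and for a shorter form, GGANNTTCC, whose matches can lie inside those of the consensus. The 250 bases before the start follow, 5′ to 3′ on the strand of the gene, with bases of either match in capitals; for NFKB2 and RELA, which have several RefSeq starts, start 2 is shown.
TNFAIP3, chr6:137867009-137867258, plus strand: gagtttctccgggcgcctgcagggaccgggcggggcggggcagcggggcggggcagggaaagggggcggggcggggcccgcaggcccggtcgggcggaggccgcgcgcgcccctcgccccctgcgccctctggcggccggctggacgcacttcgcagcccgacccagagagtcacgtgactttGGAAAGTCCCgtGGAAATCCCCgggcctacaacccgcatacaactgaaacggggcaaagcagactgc
BIRC3, chr11:102317234-102317483, plus strand: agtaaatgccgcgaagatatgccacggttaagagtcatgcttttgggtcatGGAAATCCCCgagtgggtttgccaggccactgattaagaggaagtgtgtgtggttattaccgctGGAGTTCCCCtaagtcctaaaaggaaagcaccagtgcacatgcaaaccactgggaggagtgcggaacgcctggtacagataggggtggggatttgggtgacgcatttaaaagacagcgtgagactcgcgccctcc
ICAM1, chr19:10270870-10271119, plus strand: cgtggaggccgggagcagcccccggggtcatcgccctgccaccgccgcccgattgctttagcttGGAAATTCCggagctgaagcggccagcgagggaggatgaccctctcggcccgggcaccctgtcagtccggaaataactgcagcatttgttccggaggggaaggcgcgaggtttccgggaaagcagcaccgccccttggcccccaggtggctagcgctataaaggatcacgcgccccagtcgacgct
NFKBIA, chr14:35404750-35404999, minus strand: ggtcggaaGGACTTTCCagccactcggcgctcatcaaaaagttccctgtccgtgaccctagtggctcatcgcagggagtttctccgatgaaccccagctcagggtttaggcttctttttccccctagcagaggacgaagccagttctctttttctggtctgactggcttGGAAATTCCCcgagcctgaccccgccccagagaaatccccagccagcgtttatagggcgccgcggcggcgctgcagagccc
NFKB2, chr10:102394328-102394577, plus strand: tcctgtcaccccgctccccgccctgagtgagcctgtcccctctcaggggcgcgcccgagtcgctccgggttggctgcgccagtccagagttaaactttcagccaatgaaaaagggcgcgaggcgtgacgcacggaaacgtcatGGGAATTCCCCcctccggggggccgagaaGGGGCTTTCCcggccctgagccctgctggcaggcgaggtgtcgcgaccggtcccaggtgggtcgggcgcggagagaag
RELA, chr11:65662917-65663166, minus strand: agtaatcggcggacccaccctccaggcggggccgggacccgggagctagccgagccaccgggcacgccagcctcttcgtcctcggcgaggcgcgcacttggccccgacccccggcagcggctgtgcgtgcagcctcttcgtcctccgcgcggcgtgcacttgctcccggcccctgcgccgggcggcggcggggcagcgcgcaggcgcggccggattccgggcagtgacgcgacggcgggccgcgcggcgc
The kappaB consensus was matched in the windows of 6 of the 8 members (REL, NFKB1, NFKB2, NFKBIA, TNFAIP3 and BIRC3), against 13.3% of 27305 genes and 11.3% of 35116 windows. TNFAIP3 held 2 matches, GGAAAGTCCC at 67 and GGAAATCCCC at 55 bases before the start. BIRC3 held 2 at 199 and 135 bases. ICAM1 had no match to the consensus and 1 to the shorter form, GGAAATTCC, at 186 bases before the start; 4.56% of all windows held the shorter form. NFKBIA held the consensus as GGAAATTCCC at 81 bases. Neither RELA start had a match of either kind. A match is a description of letters, and these RNA counts do not show binding.

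**Figure D1:**
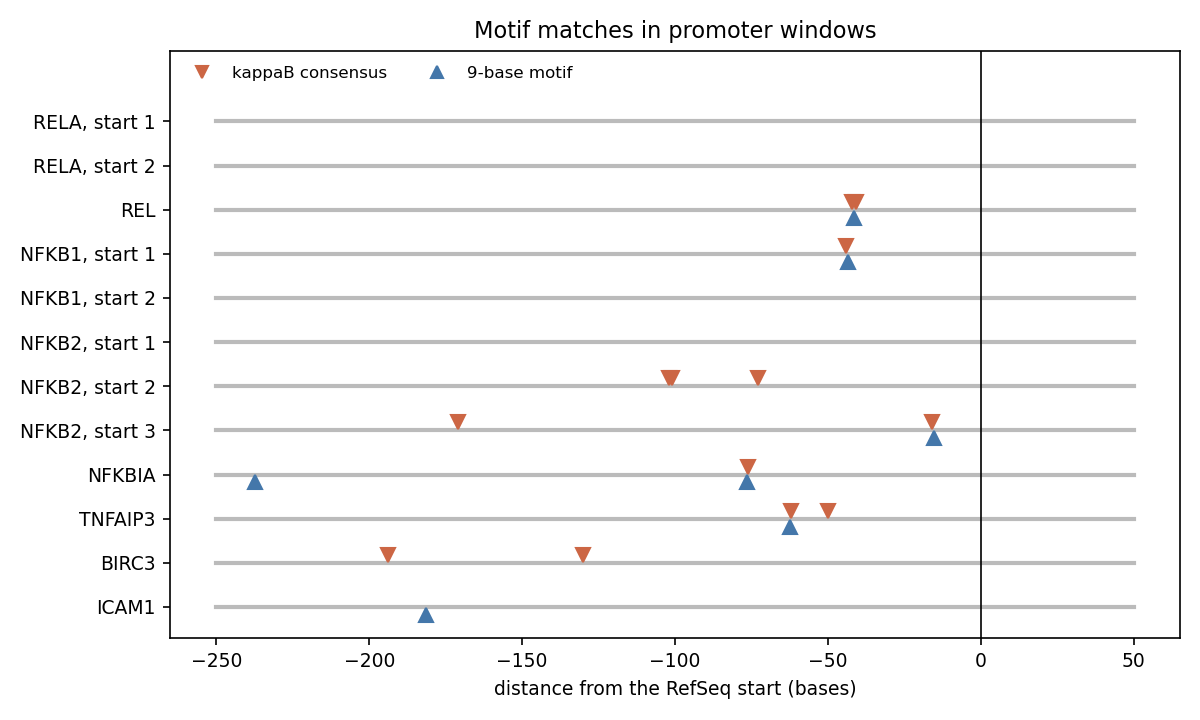
Positions of motif matches in the 12 RefSeq promoter windows of 8 NF-kappaB genes; the x axis is the distance in bases from the start, each grey line is a window from 250 bases before to 50 bases after it, orange triangles are the kappaB consensus and blue triangles GGANNTTCC (the 9-base motif), each at the centre of its match. Matches lie in 7 of the 12 windows for the consensus and in 6 for the shorter form, and the ICAM1 window has only the shorter form.

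The search was set beside the changes of the tested genes that have a RefSeq window. Of 1777 tested genes with a consensus match, 16.9% were higher and 21.6% lower after APX2009, with a median log2 change of -0.03. Of 8447 without a match, 18.3% were higher and 18.3% lower, with a median of 0.01. For GGANNTTCC, 19% of 637 genes with a match were higher and 20.6% lower, against 18% and 18.8% of 9587 without one. This is a description over genes, which are not replicates, and it was given no test.

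The libraries held 21158750 to 26111656 gene counts. APX2009 replicate 1 stood apart from the other 5: it had a count in 25015 genes against 21845 to 22446, and 0.315% of its counts were from the synthetic ERCC spike-in transcripts, against 0.480% to 0.564% in untreated libraries and 0.734% and 0.752% in the other treated ones. It was also the library with counts for all 7 fibroblast and all 6 endothelial markers, at summed levels of 19.4 and 2.25 CPM (the usual depth-scaled count, here with library sizes adjusted by the TMM method), against at most 12.7 and 0.442 CPM in any other library. COL1A2, COL3A1, DCN and PDGFRB of the fibroblast list, and PECAM1 and CLDN5 of the endothelial one, were at 0 in every untreated library. In APX2009 replicates 2 and 3 COL1A2, COL3A1, DCN and CLDN5 were at 0 as well, and PDGFRB and PECAM1 had at most 1 count. APX2009 replicate 1 held 26, 48 and 42 counts of COL1A2, COL3A1 and DCN. Most of the fibroblast sum was COL1A1, at 14.3 CPM in APX2009 replicate 1 and 12.6 CPM in untreated replicate 1. The 8 leukocyte markers summed to 6.81 to 6.99 CPM untreated and 7.04 to 8.13 CPM treated, with CD3E at 0 throughout. Of the 3 leukocyte markers that could be tested, CD68 rose 2.28-fold from 1.39 ± 0.436 to 3.17 ± 0.640 CPM (SD, n = 3; edgeR adjusted p = 0.00513), with no overlap between groups, and CD14 and LYZ did not pass, with log2 changes of -0.18 and -0.76. The 7 epithelial markers, which define the labelled cell type, were all present; they summed to 26025 to 26745 CPM untreated and 14605 to 18217 CPM treated, with KRT8, KRT18, KRT19 and CDH1 lower, and EPCAM at 447 ± 12.4 and 446 ± 4.84 CPM (SD, n = 3). The part of these differences between libraries in the results below was not tested, and each member's change is given without APX2009 replicate 1 as well.

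The 3 members that passed the test, TNFAIP3, ICAM1 and BIRC3, were all lower after APX2009, and no subunit or inhibitor gene passed it. That is 3 of 10 lower and none higher, against a background of 17.4% lower and 17.2% higher over all genes tested (edgeR, Benjamini-Hochberg adjusted p under 0.05). In either direction 30% of the members were called, against 34.7% of all genes. The median log2 change of the 10 was -0.18, and that of all tested genes 0.02. In 4 members (TNFAIP3, ICAM1, BIRC3 and NFKB2) the 3 treated values all lay below the 3 untreated ones, which was so for 25% of all tested genes. Under the other fits named below the share of all genes called lower was 13.9%, 12.1% and 11.9% without untreated replicates 1, 2 and 3, 19.1%, 15.1% and 15.9% without APX2009 replicates 1, 2 and 3, 17% with DESeq2 and 18.6% with the replicate number as a block. Total-count and upper-quartile scaling called 2509 and 2663 genes lower, and the fit without a filter on low counts 2735. The members were named with earlier results of these data known, so the count supports nothing beyond these genes. In bulk RNA, fewer cells making a transcript and less transcript in each cell cannot be told apart.

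**Figure D2:**
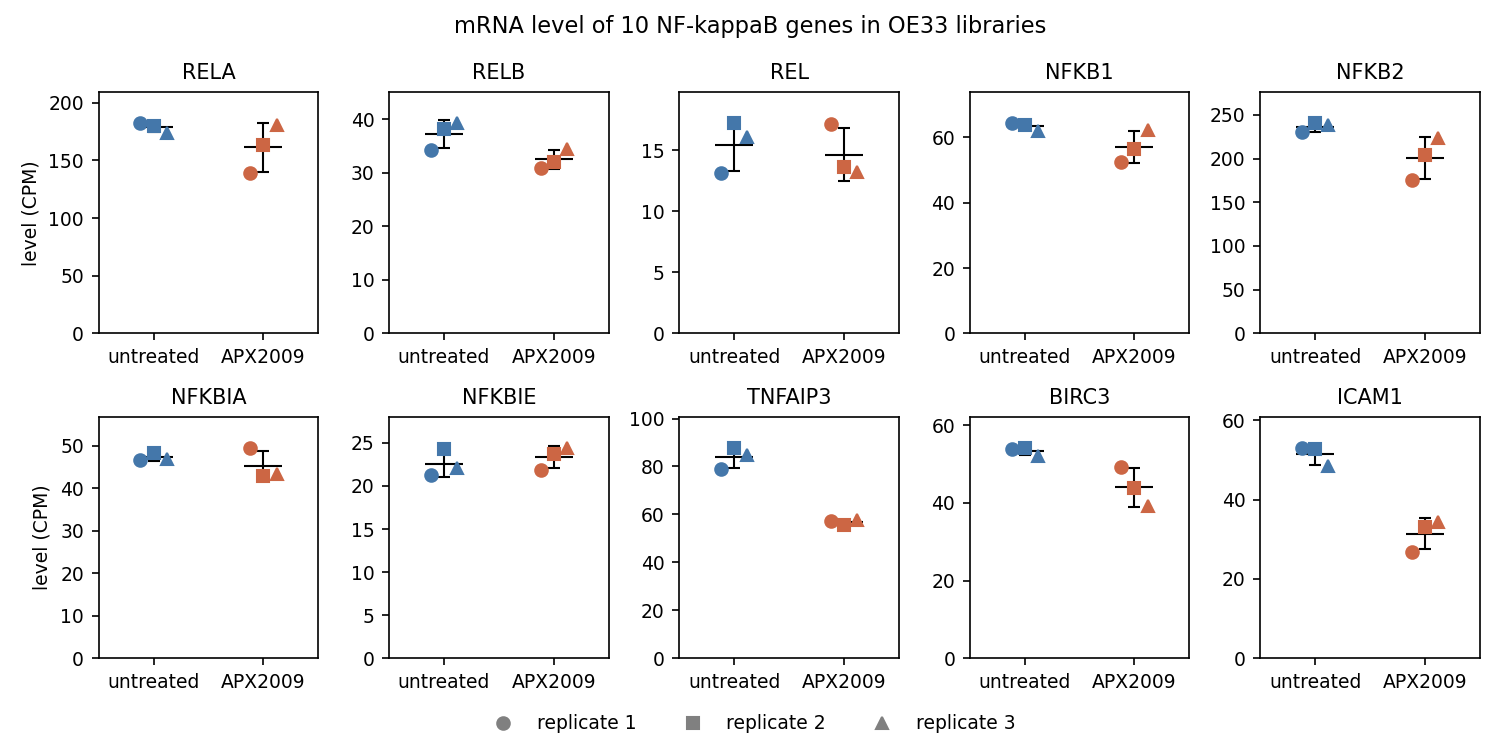
Level of each of the 10 genes in CPM (y axis, from 0) in the 3 untreated libraries (blue) and the 3 APX2009 libraries (orange); marker shapes are replicate numbers, the horizontal tick is the group mean and the bar its SD. TNFAIP3, ICAM1, BIRC3 and NFKB2 show no overlap between groups, and RELA, RELB, NFKB1, NFKB2 and ICAM1 have their lowest value in APX2009 replicate 1.

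RELA, the subunit with the main transactivating role in the canonical pathway (ENSG00000173039, GRCh38 chromosome 11, 65653596 to 65663094, minus strand), stood at 182, 180.1 and 173.7 CPM in untreated replicates 1, 2 and 3. In APX2009 replicates 1, 2 and 3 it was at 139.2, 163.6 and 181.1 CPM. The groups overlapped: treated replicate 3 was as high as untreated cells, and replicate 1 was the lowest. The log2 change was -0.15 ± 0.09 (SE; 95% interval -0.35 to 0.05; edgeR adjusted p = 0.233), and -0.05 without APX2009 replicate 1 (adjusted p = 0.477).

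REL, the subunit c-Rel best known from lymphocytes (ENSG00000162924, chromosome 2, 60881521 to 60931610, plus strand), had the lowest level of the family. It was at 13.1, 17.2 and 16.1 CPM in untreated and 17.1, 13.6 and 13.2 CPM in treated libraries, with both groups covering nearly the same range. Its log2 change was -0.08 ± 0.13 (95% interval -0.37 to 0.22; edgeR adjusted p = 0.696), and -0.21 without APX2009 replicate 1 (adjusted p = 0.191). The sign of this change turned to 0.02 without untreated replicate 2.

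NFKB1, which codes for p105 and the DNA-binding p50 made from it (ENSG00000109320, chromosome 4, 102501329 to 102617302, plus strand), was at 64.2, 63.7 and 62.0 CPM in untreated and at 52.5, 56.3 and 62.1 CPM in treated libraries. Treated replicate 3 lay inside the untreated range and the other two below it. The log2 change was -0.15 ± 0.07 (95% interval -0.31 to 0.01; edgeR adjusted p = 0.125), -0.10 without APX2009 replicate 1 (adjusted p = 0.223) and -0.22 without APX2009 replicate 3, where it passed (adjusted p = 0.0331).

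The subunits of the alternative pathway lay nearer the threshold. NFKB2, the gene of p100 and p52 (ENSG00000077150, chromosome 10, 102394110 to 102402529, plus strand), was at 229.9, 240.1 and 238.2 CPM untreated and at 175.6, 204.1 and 223.2 CPM treated. All treated values were lower, and they spread more widely than the untreated ones. Its log2 change of -0.23 ± 0.09 missed the threshold (95% interval -0.43 to -0.04; edgeR adjusted p = 0.0609). It passed in edgeR without APX2009 replicate 1 (log2 change -0.15, adjusted p = 0.0481) and without APX2009 replicate 3 (-0.32, adjusted p = 0.0171). With all libraries it passed in DESeq2 (adjusted p = 0.0299) and in edgeR with the replicate number as a block (adjusted p = 0.0277). In edgeR it also passed with total-count scaling (adjusted p = 0.0492), upper-quartile scaling (0.0445) and no filter on low counts (0.0242). NFKB2 passed in 8 of 16 alternative fits, including an ERCC-scaled fit given below in which every member passed.

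RELB, its usual partner (ENSG00000104856, chromosome 19, 45001430 to 45038198, plus strand), was at 34.3, 38.3 and 39.2 CPM untreated and at 31.0, 32.1 and 34.4 CPM treated. The lowest untreated and the highest treated value crossed. Its log2 change was -0.20 ± 0.08 (95% interval -0.37 to -0.03; edgeR adjusted p = 0.0733) and -0.17 without APX2009 replicate 1 (adjusted p = 0.108), and of the fits that left out 1 library it passed in the one without untreated replicate 1 (-0.25, adjusted p = 0.0448). Of the 5 subunit genes, then, none passed in the edgeR fit of all libraries with TMM scaling and the filter on low counts. In that fit no interval went below a log2 change of -0.43.

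Neither inhibitor gene passed the test. NFKBIA, which codes for IkappaB-alpha, the inhibitor that dimers induce first (ENSG00000100906, chromosome 14, 35401511 to 35404749, minus strand), was at 46.6, 48.2 and 46.9 CPM untreated and at 49.4, 42.8 and 43.4 CPM treated. Treated replicate 1 was the highest of the 6 and the other treated libraries the lowest. The log2 change was -0.06 ± 0.07 (95% interval -0.22 to 0.10; edgeR adjusted p = 0.530), and -0.14 without APX2009 replicate 1 (adjusted p = 0.0917).

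NFKBIE, which codes for IkappaB-epsilon (ENSG00000146232, chromosome 6, 44258166 to 44265788, minus strand), was the member with a positive estimate. It was at 21.3, 24.3 and 22.1 CPM untreated and at 21.9, 23.7 and 24.4 CPM treated, and the groups overlapped almost fully. The log2 change was 0.05 ± 0.08 (95% interval -0.14 to 0.23; edgeR adjusted p = 0.695), and 0.09 without APX2009 replicate 1 (adjusted p = 0.433).

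TNFAIP3 codes for A20, an enzyme that edits ubiquitin chains and shuts off signalling to IKK (ENSG00000118503, chromosome 6, 137867188 to 137883312, plus strand). It was at 79.1, 87.6 and 84.9 CPM in untreated and at 57.2, 55.6 and 57.5 CPM in treated libraries. The 3 treated values lay close together and well below all untreated ones. TNFAIP3 fell 1.48-fold, a log2 change of -0.56 ± 0.06 (95% interval -0.70 to -0.42; edgeR adjusted p = 1.10e-04). The change was -0.57 without APX2009 replicate 1 (adjusted p = 2.33e-05), and it passed whichever library was left out. The promoter shown above for it is the one with the consensus at 67 and 55 bases.

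BIRC3, which codes for the ubiquitin ligase cIAP2 of the TNF receptor complex and belongs to the inhibitor-of-apoptosis family (ENSG00000023445, chromosome 11, 102317450 to 102339403, plus strand), was at 53.7, 54.1 and 52.1 CPM untreated and at 49.1, 43.7 and 39.1 CPM treated. All treated values were lower, with replicate 1 nearest to the untreated cells. BIRC3 fell 1.21-fold, a log2 change of -0.28 ± 0.08 (95% interval -0.46 to -0.09; edgeR adjusted p = 0.0266), and -0.37 without APX2009 replicate 1 (adjusted p = 9.62e-04). The call was lost when any other library was left out: adjusted p was 0.0828, 0.104 and 0.0781 without untreated replicates 1, 2 and 3, and 0.0848 and 0.0673 without APX2009 replicates 2 and 3, with log2 changes from -0.29 to -0.20.

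ICAM1, the cell surface ligand for leukocyte integrins (ENSG00000090339, chromosome 19, 10270835 to 10286615, plus strand), moved furthest of the 10. It was at 53.0, 52.8 and 48.5 CPM untreated and at 26.9, 33.1 and 34.2 CPM treated. The groups were far apart, with treated replicate 1 the lowest. ICAM1 fell 1.64-fold, a log2 change of -0.71 ± 0.09 (95% interval -0.92 to -0.51; edgeR adjusted p = 2.93e-04). The change was -0.61 without APX2009 replicate 1 (adjusted p = 2.31e-05), and it passed whichever library was left out.

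**Figure D3:**
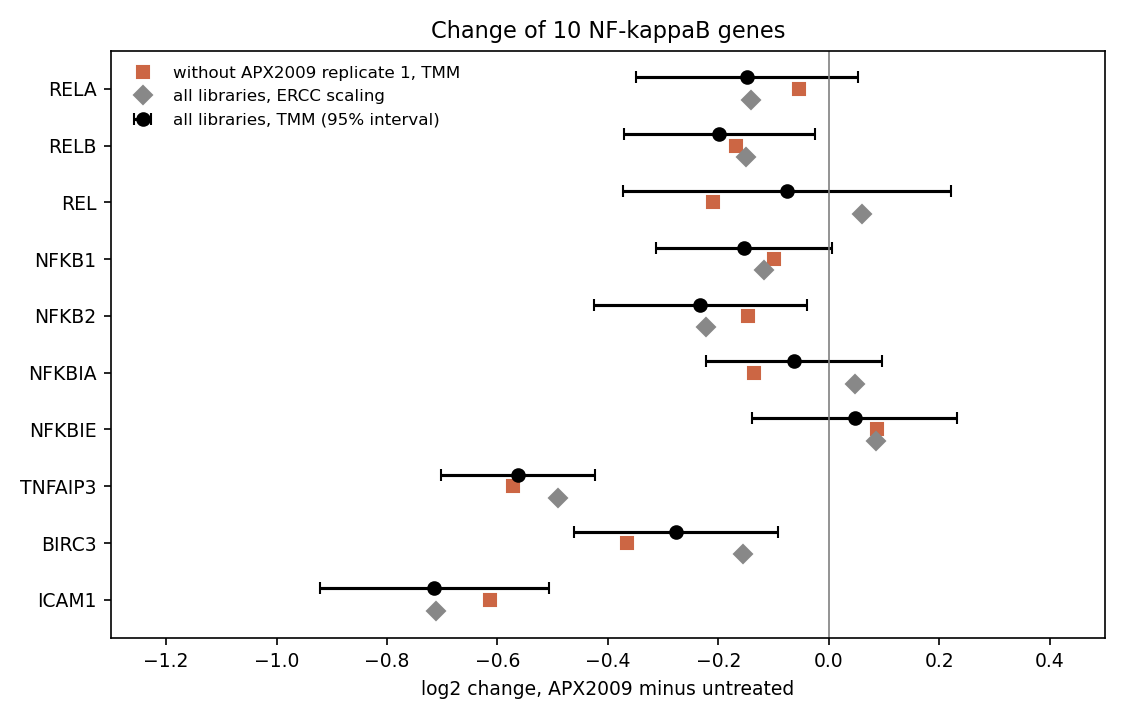
Log2 change of the 10 genes (x axis, APX2009 minus untreated): black points with 95% intervals are the edgeR fit on all 6 libraries, orange squares the fit without APX2009 replicate 1, and grey diamonds the fit with libraries scaled by the ERCC total. The point estimates of TNFAIP3 (-0.56 with all libraries) and ICAM1 (-0.71) lie to the left of the subunits and inhibitors in each of the 3 fits.

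Scaling changes what these values are relative to. With libraries scaled by the ERCC total none of the 10 passed in edgeR, against 0.921% of all genes in either direction at the same adjusted threshold. Of the 10, 0 had an unadjusted p under 0.05, and the share of all genes under that unadjusted threshold is not given here. The log2 changes were -0.49 for TNFAIP3, -0.71 for ICAM1 and -0.16 for BIRC3, each with an SE of about 0.50. The spike-in shares among treated libraries, given above, were 0.315% to 0.752%. With APX2009 replicate 1 left out as well, an alternative chosen after seeing the data, all 10 were lower, as were 61.6% of all genes tested, whose median log2 change was then -0.48. Relative to that median, ICAM1 was at -0.62, TNFAIP3 at -0.58 and BIRC3 at -0.37, while RELA was at -0.06 and NFKBIE at 0.08. With ERCC scaling of all libraries NFKB2 (-0.22) was below BIRC3, and without APX2009 replicate 3 (TMM) NFKB2, RELB, RELA and NFKB1 were, at -0.32, -0.24, -0.24 and -0.22 against -0.20; ICAM1 and TNFAIP3 were the lowest pair in each of these fits. A common shift in mRNA per cell and a difference in the spike-in added cannot be told apart here.

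Levels of different genes can be compared only per length, here as CPM per kilobase of all annotated exons of the gene. NFKB2 led in untreated cells at 52.6 ± 1.21, followed by RELA at 32.7 ± 0.796, NFKBIA at 19.9 ± 0.367, TNFAIP3 at 16.6 ± 0.856, ICAM1 at 13.9 ± 0.693, RELB at 12.3 ± 0.865, NFKB1 at 10.1 ± 0.182, NFKBIE at 8.74 ± 0.595, BIRC3 at 7.09 ± 0.136 and REL at 1.17 ± 0.160 CPM per kilobase (SD, n = 3). No neighbours in this order overlapped. In treated cells ICAM1 dropped from rank 5 to rank 8, at 8.47 ± 1.07 CPM per kilobase, and its values overlapped those of NFKBIE at 9.04 ± 0.494. TNFAIP3 kept rank 4 at 11.2 ± 0.204 but overlapped RELB at 10.7 ± 0.582, and NFKB1 overlapped NFKBIE. The order depends on the exon length used, which is 13170 bases for REL, 5702 of them shared with another gene.

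Ratios within a library do not depend on the scaling. NFKBIA stood at 0.589, 0.617 and 0.622 times RELA per length in untreated libraries and at 0.816, 0.603 and 0.552 in treated ones, so that the treated values fell on both sides of the untreated ones, with replicate 1 highest. RELB stood at 0.376 ± 0.0342 times RELA in untreated and 0.365 ± 0.0308 in treated cells (SD, n = 3). NFKB2 stood at 5.21 ± 0.187 and 4.91 ± 0.217 times NFKB1, and the groups overlapped for each of these ratios.

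**Figure D4:**
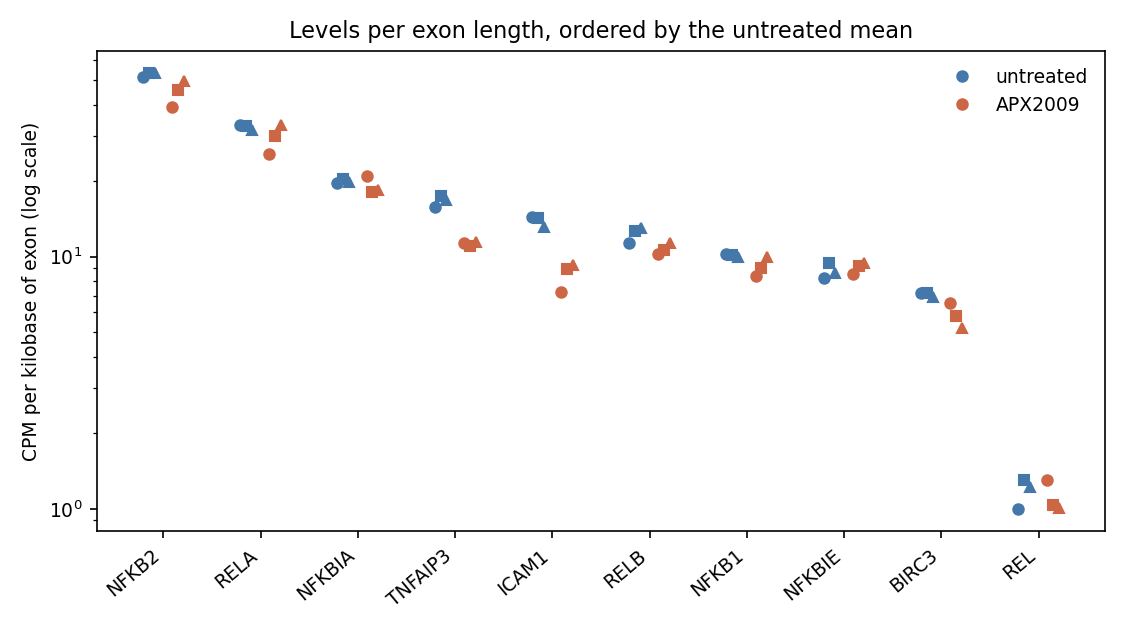
Level per exon length of the 10 genes (y axis, CPM per kilobase, log scale), ordered by the untreated mean, in untreated (blue) and APX2009 (orange) libraries; marker shapes are replicates 1 (circle), 2 (square) and 3 (triangle). NFKB2 leads at 52.6 and REL is last at 1.17 CPM per kilobase in untreated cells, and TNFAIP3 and ICAM1 show the widest gap between groups.

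The rest of the pathway was taken from 7 lists by role, holding 114 genes of which 95 could be tested: 19 were higher and 24 lower (45.3% called, against 34.7% of all genes). Over all genes tested 17.2% were higher and 17.4% lower, which is the background for the counts of each list. These counts and the changes below are with TMM scaling; with libraries scaled by the ERCC total none of the genes named from these 7 lists by the rule of smallest p passed. Of the 6 other IkappaB proteins and regulators none passed with all libraries and the filter on low counts in edgeR, nor in DESeq2 or limma voom. In each, 1 had an unadjusted p under 0.05, and the share of all genes under that threshold is not given here. BCL3, a nuclear IkappaB protein, had a log2 change of -0.21 ± 0.09 (edgeR adjusted p = 0.0978), and -0.12 without APX2009 replicate 1 (adjusted p = 0.186). NFKBIZ, a nuclear IkappaB protein that is itself an NF-kappaB target, was at 0.33 ± 0.17 (adjusted p = 0.147) and at 0.11 without APX2009 replicate 1 (adjusted p = 0.487). NFKBIZ passed in edgeR without the filter (0.32, adjusted p = 0.0107) and with the replicate number as a block (0.32, adjusted p = 0.0165). NKIRAS1 and NKIRAS2, small GTPase-like regulators that bind IkappaB proteins, were at 0.26 (adjusted p = 0.121) and 0.20 (adjusted p = 0.126); NKIRAS2 passed without APX2009 replicate 1 (0.29, adjusted p = 0.00875).

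Genes of the IKK complex, its activating kinases and their adaptors changed in both directions, with 4 of 11 higher and 3 lower (63.6% called, against 34.7% of all genes). TBK1, an IKK-related kinase of innate immunity, rose 1.43-fold from 32.2 ± 1.13 to 46.1 ± 1.54 CPM (SD, n = 3; edgeR adjusted p = 2.34e-04). MAP3K8, a kinase held inactive by p105, rose 1.45-fold from 6.74 ± 0.685 to 9.78 ± 0.663 CPM (adjusted p = 0.00721). TAB2, an adaptor of the kinase TAK1, fell 1.20-fold to 91.9 ± 1.79 CPM (adjusted p = 0.00582). IKBKE fell 1.28-fold (adjusted p = 0.0112), a call lost without untreated replicate 3 (adjusted p = 0.0597). Chosen after their values were seen, MAP3K14, the kinase NIK, fell 1.32-fold (adjusted p = 0.0126), while the IKK subunit genes CHUK and IKBKG rose 1.14-fold (adjusted p = 0.0384) and 1.26-fold (adjusted p = 0.0233), and IKBKB did not pass (log2 change 0.09, adjusted p = 0.303).

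Among 22 adaptors and ubiquitin ligases 2 were higher and 4 lower (27.3% called, against 34.7% of all genes). Of the linear ubiquitin ligase complex, which builds the chains that recruit IKK, RBCK1 fell 1.38-fold from 1178 ± 26.0 to 854 ± 33.8 CPM (edgeR adjusted p = 4.98e-04) and RNF31 1.33-fold to 34.6 ± 4.32 CPM (adjusted p = 0.00630). SHARPIN, the other member of that complex, named after its values were seen, did not pass (log2 change -0.09 ± 0.07, adjusted p = 0.373). CARD10 and BCL10 code for parts of the same signalling complex and went opposite ways: CARD10 fell 1.37-fold to 87.5 ± 13.4 CPM (adjusted p = 0.00579), and BCL10 rose 1.31-fold to 69.4 ± 8.85 CPM (adjusted p = 0.00688). Both were furthest from the untreated cells in APX2009 replicate 1, at 72.4 and 79.6 CPM.

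Of 14 tested negative regulators besides TNFAIP3, 3 were higher and 2 lower (35.7% called, against 34.7% of all genes). PDLIM2, a nuclear ubiquitin ligase for RELA, fell 1.57-fold to 9.24 ± 1.00 CPM (edgeR adjusted p = 0.00207), and N4BP1 fell 1.28-fold (adjusted p = 0.00171). RNF11, a partner of A20, rose 1.26-fold (adjusted p = 0.00208), and TRAFD1 rose 1.24-fold (adjusted p = 0.00439).

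The receptors and ligands held the largest changes of the upstream genes. Of 15 tested receptors 3 were higher and 5 lower (53.3% called, against 34.7% of all genes). EDAR, the receptor of ectodysplasin, fell 3.54-fold from 5.82 ± 0.400 to 1.64 ± 0.125 CPM (SD, n = 3; edgeR adjusted p = 1.76e-05), and TLR3, a sensor of double-stranded RNA, fell 2.29-fold from 8.51 ± 0.690 to 3.71 ± 0.216 CPM (adjusted p = 9.37e-05). TNFRSF1B, a TNF receptor, fell 1.39-fold to 19.5 ± 0.911 CPM (adjusted p = 0.00124), and IL17RC, an interleukin-17 receptor subunit, rose 1.66-fold to 40.2 ± 3.81 CPM (adjusted p = 1.68e-04).

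Of 14 ligand genes 8 could be tested, with 3 higher and 2 lower (62.5% called, against 34.7% of all genes). TNF itself had at most 0.178 CPM in any library and was not tested. TNFSF15, the TNF-family ligand TL1A, fell 2.78-fold from 18.6 ± 0.452 to 6.70 ± 0.463 CPM (SD, n = 3; edgeR adjusted p = 4.37e-06). IL1A, the interleukin-1 form released by damaged epithelium, rose 2.29-fold from 7.34 ± 0.589 to 16.8 ± 2.00 CPM (adjusted p = 5.49e-05). TNFSF9 rose 1.41-fold (adjusted p = 0.0224) and IL1B 1.44-fold (adjusted p = 0.0409); both were under 10 CPM and lost the call in several fits, with adjusted p up to 0.0788 and 0.122 when single libraries were left out.

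Of 30 other target genes 20 could be tested, with 4 higher and 8 lower (60% called). Over all genes tested 34.7% were called, 17.2% higher and 17.4% lower. The 4 that rose were CXCL8, CXCL1, CXCL2 and CXCL3, all neutrophil-attracting chemokines, and the 8 that fell were BCL2L1, TNFAIP2, CFLAR, SDC4, PLAU, LCN2, TAP1 and PTGS2; those without values here are listed because they passed, after their values were seen. CXCL8 rose 2.73-fold from 4.44 ± 0.244 to 12.1 ± 1.79 CPM (SD, n = 3; edgeR adjusted p = 3.90e-05). TNFAIP2, a TNF-induced gene, fell 2.28-fold from 267 ± 2.82 to 117 ± 11.5 CPM (adjusted p = 3.91e-06). The urokinase gene PLAU and the syndecan gene SDC4 fell 1.47-fold (adjusted p = 3.30e-04) and 1.37-fold (adjusted p = 4.76e-04). In this fit target genes changed in both directions, and the subunit and IkappaB genes did not pass the test. A gene that did not pass is not shown to be unchanged. Among the named subunit genes, IkappaB genes and their regulators, NFKB2, NFKB1, RELB, NFKBIZ and NKIRAS2 passed in some alternative fits without ERCC scaling. With ERCC scaling and APX2009 replicate 1 left out, all subunit and inhibitor members and BCL3 were called lower, as were 61.6% of all genes.

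**Figure D5:**
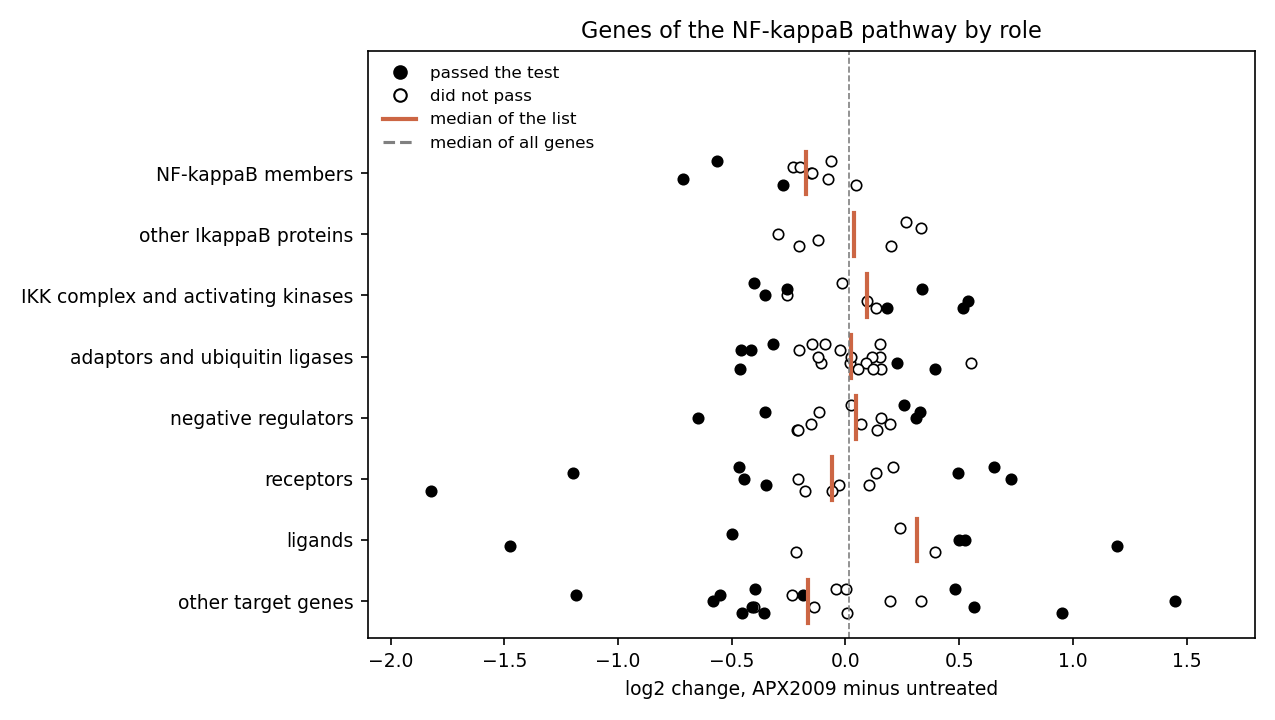
Log2 change (x axis, APX2009 minus untreated) of every tested gene of the NF-kappaB pathway, by role; filled points passed the test at an adjusted p under 0.05, open points did not, orange bars are list medians and the dashed line is the median of all genes, 0.02. The members lie to the left at a median of -0.18, while receptors, ligands and target genes spread to both sides, from EDAR at -1.82 to CXCL8 at 1.45.

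Of the redox genes that act on NF-kappaB proteins, APEX1 did not pass, with 180 ± 3.48 CPM untreated and 173 ± 6.70 CPM treated (SD, n = 3; edgeR adjusted p = 0.469). An inhibitor of a protein need not change its mRNA, so this does not check the labels. TXN and TXNRD1, of the thioredoxin system, rose 2.44-fold (adjusted p = 1.91e-05) and 3.69-fold (adjusted p = 5.87e-07), and TXNIP, which codes for an inhibitor of thioredoxin, fell 11.1-fold (adjusted p = 4.17e-09).

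Some members share exons with other annotated genes, and the strand setting of the counts is not given. ICAM1 shares 815 and 61 exon bases with antisense genes that held at most 6 counts in a library, and TNFAIP3 shares 95 with an antisense gene of 18 to 37 counts, far below their own 715 and 1201 or more. REL shares 5702 exon bases with a noncoding gene on its own strand that held 0 counts in every library. How reads in shared bases were counted is not given. Low counts of the other genes therefore do not show that the counts of these members are unaffected.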

How the data were processed

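Poly(A) RNA of 3 untreated and 3 APX2009-treated OE33 samples was sequenced; titles gave the groups. The values deposited are unnormalized read counts, 1 row for each Ensembl gene ID or ERCC spike-in (92 of these). Trimmomatic 0.36, STAR 2.5.2b, featureCounts, Subread 1.5.2 and the build GRCh38 are listed per the submitters' processing notes, without roles; annotation release and strand setting were not given in the sources used here. GENCODE 29 matched 57447 of 58051 gene IDs.

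Spike-ins entered neither library sizes nor tests. After filterByExpr and TMM scaling, edgeR 4.0.16 (R 4.3.3) compared treatment with control by its quasi-likelihood test, and p-values were adjusted by Benjamini-Hochberg over all 14773 genes (called under 0.05). The text names the 10 members, APEX1 and up to 4 genes of smallest p from each list. Members and lists were chosen with earlier results of these data known.

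Alternatives were RLE, total-count, upper-quartile and ERCC scaling, no filter, 1 CPM in 3 libraries, DESeq2 1.42.0, voom of limma 3.58.1, a replicate block, an adjusted p under 0.01 and leaving out each library. ERCC scaling with APX2009 replicate 1 left out was added after seeing the data.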

Additional observations from a re-analysis of the deposited data

How the results depend on the processing

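In the edgeR fit of all libraries with TMM scaling and the filter on low counts, 5119 genes and 3 of the 10 members passed. An adjusted p under 0.01 left 3057 genes and 2 members, with BIRC3 losing the call. ERCC scaling left 136 genes and 0 members (edgeR), and ERCC scaling with APX2009 replicate 1 left out gave 9689 genes and 10 members. Leaving out single libraries gave 3503 to 5709 genes and 2 to 4 members. ERCC scaling turned the log2 changes of REL to 0.060 and of NFKBIA to 0.047, and REL was at 0.016 without untreated replicate 2. With APX2009 replicate 1 left out as well, NFKBIE (-0.41), NKIRAS1 (-0.28), NKIRAS2 (-0.21), NFKBIZ (-0.37), BCL10 (-0.21), RNF11 (-0.19), TRAFD1 (-0.17) and IL1B (-0.08) turned negative, beside the median of all genes at -0.48. The cause of these turns was not tested. In the replicate block fit 5501 genes and 4 members passed, NFKB2 and NFKBIZ among the named genes gaining the call (adjusted p = 0.0277 and 0.0165). Deviations of same-numbered libraries from their group means correlated at 0.140, 0.0780 and 0.00600 across genes. Untreated replicate 1 went best with the treated library of its own number. For untreated replicate 3 the correlations with the treated libraries all lay between -0.005 and 0.006, too close together to tell them apart. Untreated replicate 2 went best with APX2009 replicate 3, at 0.115. Whether the numbers pair the libraries was not tested. Of 42 named genes, 42 kept their side of the threshold with RLE factors and with the filter of 1 CPM, 41 with limma voom and 40 with DESeq2. With ERCC scaling 12 did, 28 lost the call and 2 changed sign; of the 30 named genes that passed, TXNIP and TXNRD1 still did (adjusted p = 1.09e-07 and 0.0104), and the named kinase, adaptor, negative regulator, receptor, ligand and target genes that had passed no longer did. Without a filter on low counts NFKB2 and NFKBIZ gained the call (adjusted p = 0.0242 and 0.0107) and IL1B lost it.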
